A study of Mus musculus with 4 samples.

Results

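Of the 46072 genes in the deposited table, 48 carry the name of a proteasome subunit, regulator or assembly factor (Psm, a letter from a to g, and a number). The rule for the choice was the gene name alone and used no measured value, though earlier results of these data were known. The proteasome is the barrel-and-cap protease that degrades proteins tagged with ubiquitin. Its 20S core is a stack of rings, with outer rings of alpha subunits (Psma genes) and inner rings of beta subunits (Psmb genes), of which Psmb5, Psmb6 and Psmb7 cut peptide bonds. The 19S cap binds, unfolds and feeds substrates through ATPases (Psmc genes) and non-ATPase subunits (Psmd genes), other caps are made by Psme genes, and Psmg genes and a few Psmd genes help assembly. Cells exposed to interferon, and immune cells, can replace the cutting subunits with Psmb8, Psmb9 and Psmb10 to form the immunoproteasome. In brain, neurons and glia depend on the proteasome to clear misfolded proteins and to renew synaptic proteins.

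Poly(A) RNA was sequenced from 4 libraries, here replicates 1 to 4, of untreated wild-type (WT) mouse brain vascular tissue fixed by perfusion. The labelled cell type is endothelial cells taken by immuno-guided laser capture (LCM), where stained cells are cut from a section with a laser. The sources used here give no sex, age or strain. No label ties a library to an animal, so every p-value reflects spread among these 4 samples, which may be technical. All libraries form 1 group, so each comparison is between genes within libraries. Values are the authors' FPKM (fragments scaled to transcript length and to mapped fragments). Being per length, they let levels of different genes be set side by side. Libraries still differed by transcript length, as given below, so comparisons between genes of unlike length are less sure. Read depth is unknown.

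Markers of the labelled cell type were present beside stronger markers of neurons, oligodendrocytes and astrocytes. The 8 endothelial markers had a median of 12.5 ± 0.219 FPKM (SD over libraries, n = 4) and summed to 168 to 189 FPKM per library. All 8 were above 0, with Cdh5 lowest at 0.878 ± 0.367. The summed level was 1955 to 2522 FPKM for 6 neuronal markers, 2049 to 2472 for 5 oligodendrocyte markers, 739 to 937 for 5 astrocyte markers, 129 to 180 for 6 microglial markers, 127 to 163 for 5 mural markers and 0.968 to 1.76 for 5 lymphocyte markers. The lists differ in size, and sums lean on their highest genes. The medians were 167 FPKM for neuronal, 200 for oligodendrocyte, 109 for astrocyte, 15.3 for microglial, 19.7 for mural and 0.232 for lymphocyte markers. The part of each cell type in the proteasome values below was not tested. In such mixed samples, fewer cells of a type and less RNA per cell cannot be told apart.

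Nearly every proteasome gene was measured at a substantial level, and the exceptions were the immune subunits Psmb8 and Psmb9, the alternative cap Psme4 and the tissue-restricted Psma8 and Psmb11. All 48 genes were above 0 in some library, 46 averaged 1 FPKM or more and 18 averaged 100 FPKM or more. With limma's moderated test on log2(FPKM + 1), adjusted over 25206 genes by Benjamini-Hochberg, 46 members lay above 1 FPKM and 2, Psma8 and Psmb11, lay below it. Over all genes tested 47.7% lay above and 40.1% below that level. A second reference was the median of the 13654 genes averaging 1 FPKM or more, called the expressed-gene median here, which was 7.48 ± 0.233 FPKM (SD, n = 4). Against it 43 members were higher and 5 were lower, where 23.9% of all genes tested were higher and 69.5% lower. The median member lay 3.23 above it on the log2(FPKM + 1) scale, and the median of all genes tested lay at -1.82. Together the 48 genes held 0.917% ± 0.0717 of summed FPKM.

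**Figure D1:**
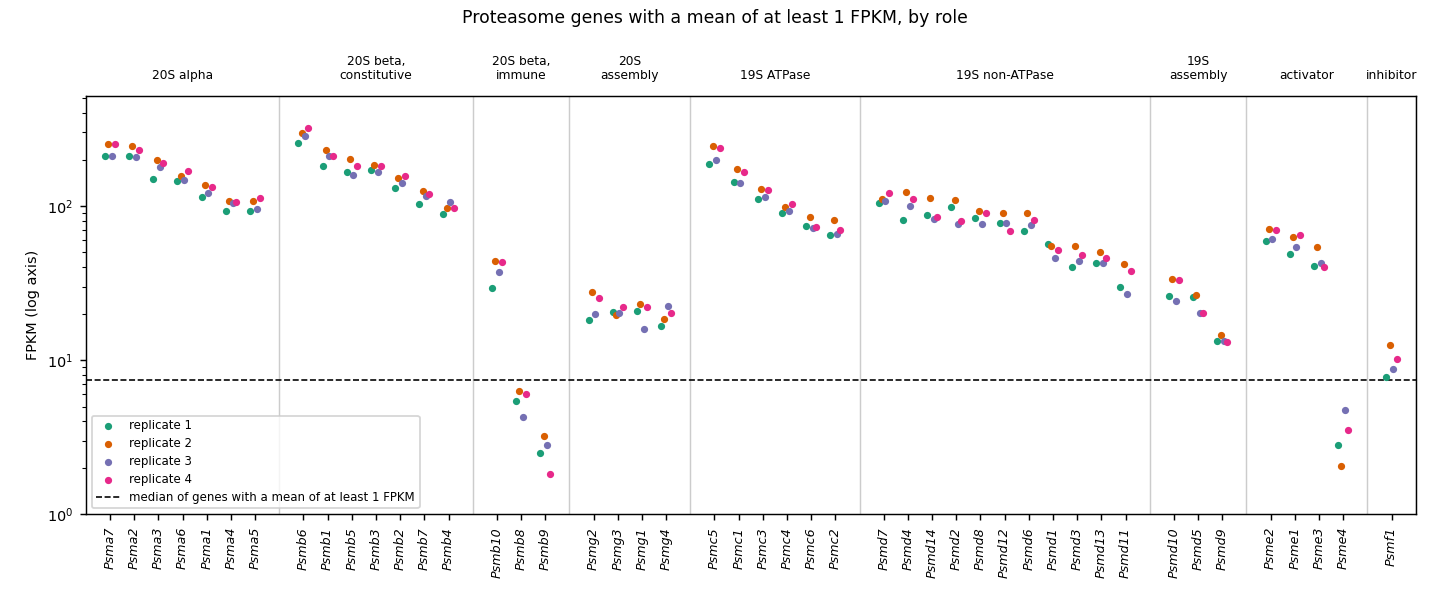
FPKM on a log axis for the 46 proteasome genes averaging 1 FPKM or more, grouped by role and ordered by mean, with 1 point per library. The dashed line is the expressed-gene median of 7.48 FPKM. All genes of the 20S alpha, constitutive 20S beta and 19S groups lie above it in every library, and Psmb8, Psmb9 and Psme4 lie below it.

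The 7 alpha subunits, which build the outer rings and the gate of the core, were among the highest members and differed from each other by 2.27-fold between the highest and the lowest mean. All 7 exceeded the expressed-gene median. The group median was 154 ± 10.6 FPKM (SD over libraries, n = 4), or 20.7 ± 2.04 times the expressed-gene median. Psma7 was highest, at 211, 251, 212 and 254 FPKM in replicates 1 to 4, and Psma2 was next at 225 ± 18.0 FPKM. Psma7 was high in replicates 2 and 4 and low in replicates 1 and 3. Psma5 was lowest, at 92.6, 108, 95.5 and 113 FPKM, with the same order of library pairs. The ranges of Psma7 and Psma5 did not overlap. Psma3, Psma6, Psma1 and Psma4 lay between, with means of 180, 154, 127 and 103 FPKM.

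The 7 constitutive beta subunits were the highest group, with a median of 173 ± 11.9 FPKM (SD over libraries, n = 4), or 23.1 ± 2.27 times the expressed-gene median, and all 7 exceeded it. Psmb6, the caspase-like cutting subunit and the highest of all members, measured 255, 300, 283 and 320 FPKM in replicates 1 to 4. Psmb5, the chymotrypsin-like subunit that proteasome inhibitor drugs bind, measured 167, 201, 158 and 181 FPKM. Psmb7, the trypsin-like subunit, measured 104, 125, 117 and 120 FPKM. The ranges of these cutting subunits did not overlap with each other. The lowest of the group was the non-catalytic Psmb4 at 88.4, 97.7, 105 and 96.9 FPKM, and Psmb1, Psmb3 and Psmb2 had means of 208, 176 and 145 FPKM. Psmb6 was 2.98 times Psmb4 by mean.

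The 3 immune subunits were lower than the constitutive subunits they replace, each in 4 of 4 libraries, and they differed from each other by 14.8-fold. Psmb10 (beta2i), which takes the place of Psmb7, measured 29.3, 43.9, 37.6 and 43.2 FPKM in replicates 1 to 4. It was low in replicate 1, and its highest value stayed under the lowest of Psmb7. Psmb8 (beta5i), which takes the place of Psmb5, measured 5.46, 6.29, 4.30 and 6.03 FPKM. Psmb9 (beta1i), which takes the place of Psmb6, measured 2.51, 3.24, 2.80 and 1.83 FPKM, with its lowest value in replicate 4. Psmb10 held 82.4% ± 2.73 of the FPKM of the 3 immune genes, and the 3 together held 7.37% ± 0.541 of the FPKM of the 6 cutting-subunit genes (SD, n = 4).

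Set against its partner, Psmb10 was 3.07 ± 0.346 times lower (SD over libraries, n = 4) and made up 24.7% ± 2.0 of the pair's FPKM. Psmb8 was 32.4 ± 3.09 times lower and made up 3.02% ± 0.261, and Psmb9 was 118 ± 38.6 times lower and made up 0.898% ± 0.224. On the log2(FPKM + 1) scale, where differences of low genes are understated, Psmb10 lay at -1.59 ± 0.09 (limma's moderated SE) from Psmb7 (limma, adjusted p = 1.74e-25). Psmb8 lay at -4.77 ± 0.15 from Psmb5 (limma, adjusted p = 1.99e-31) and Psmb9 at -6.35 ± 0.20 from Psmb6 (limma, adjusted p = 3.55e-215). Each fit covered all genes, and most genes lay below such high partners: 97.2% below Psmb7, 98.4% below Psmb5 and 99.1% below Psmb6. Every gene in such a fit is set against the same partner gene, which makes the spreads alike and gives very small p-values. Over the 13 alternatives the largest adjusted p was 0.000285 for Psmb10, 1.79e-05 for Psmb8 and 5.58e-05 for Psmb9, each in limma without moderation, where a gene keeps its own spread.

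**Figure D2:**
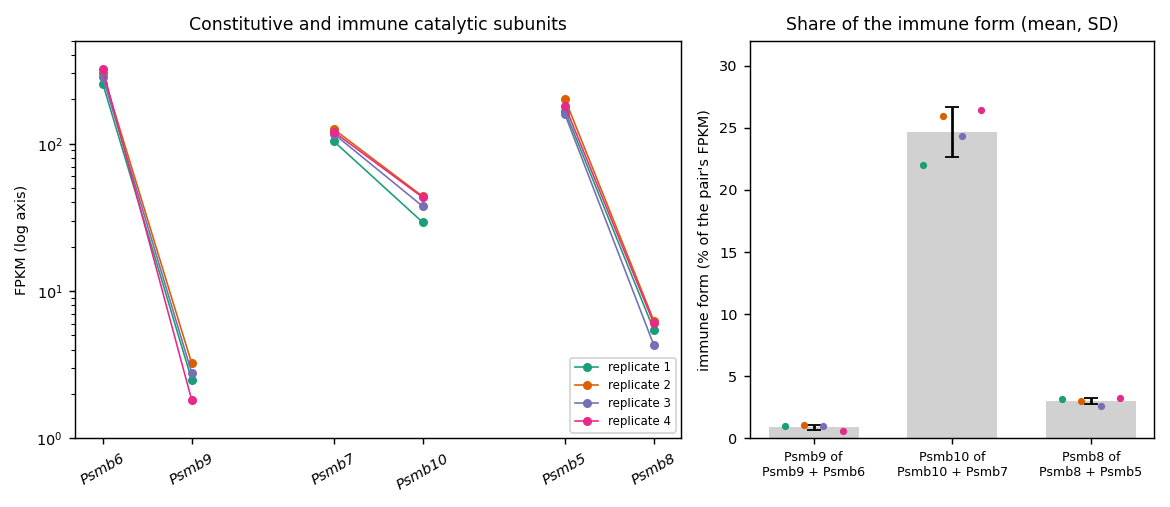
Left, FPKM on a log axis of each constitutive cutting subunit joined to its immune form, with 1 line per library. Right, the immune form as a percent of its pair's FPKM, with bars for the mean, error bars for the SD over 4 libraries and points for libraries. The shares are 0.898% for Psmb9, 24.7% for Psmb10 and 3.02% for Psmb8.

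Psmb10 lay 2.2 above the expressed-gene median on the log2 scale, and Psmb8 and Psmb9 lay at -0.39 and -1.25 (limma, adjusted p = 0.0138 for Psmb8 and 2.06e-05 for Psmb9). Both lay above 1 FPKM. The place of Psmb8 beside that median was unsettled. It was lost without replicate 3 (log2 difference -0.29, limma adjusted p = 0.0644), without moderation (adjusted p = 0.0505) and with each library rescaled to a common sum of 1000000, where the difference was -0.05 (adjusted p = 0.733). With reference genes of at least 0.1 FPKM it pointed up at 0.65 (adjusted p = 0.000133), and Psmb9 lay at -0.22 (adjusted p = 0.215). The endothelial markers had a median of 12.5 ± 0.219 FPKM and the microglial markers of 15.3 ± 1.70 FPKM (SD, n = 4), with none at 0. The lymphocyte markers had a median of 0.232 ± 0.0592 FPKM, of which Cd3g was listed at 0 in replicate 3 and Ms4a1 in replicates 1, 3 and 4. Which cell types held the immune subunits was not tested.

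Psmb8 (chromosome 17, 34197721 to 34201454, GRCm38, plus strand) and Psmb9 (chromosome 17, 34181987 to 34187764, minus strand) lie close together in the major histocompatibility complex, and Psmb10 (chromosome 8, 105935735 to 105938444) lies apart. Promoter windows from RefSeq (GRCm38.p6) ran from 250 bases before to 50 after an annotated start. They were read for the cutting subunits to show the sequence around the RefSeq start of genes that differ this far in level. Psme1, an activator gene, and Psmc6, an ATPase gene, are shown as well. Psmb7 had no entry. The windows of Psmb8, Psmb9 and Psme1 lie wholly inside the GENCODE M21 gene spans, which begin further upstream, as do 10 of the 43 member windows in all. Sequences run 5′ to 3′ on the gene's strand, and capitals mark motif matches on either strand. The core of the antioxidant response element, which Nrf1 and Nrf2 bind, was searched as TGACNNNGC. The core of the interferon-stimulated response element was a pair of GAAA with any 2 bases between. The others were the ETS factor core CCGGAAG, the box named CCAAT and the TATA box, searched as TATAAA. Matches to the GC box GGGCGG were counted but are left in lower case.
Psmb5 (chr14:54617946-54618245, minus strand): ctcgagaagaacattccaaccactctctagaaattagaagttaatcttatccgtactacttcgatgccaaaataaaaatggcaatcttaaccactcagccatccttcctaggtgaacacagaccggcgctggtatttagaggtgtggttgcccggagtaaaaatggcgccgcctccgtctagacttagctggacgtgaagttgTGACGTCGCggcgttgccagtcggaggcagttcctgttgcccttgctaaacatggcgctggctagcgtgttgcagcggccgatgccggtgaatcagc
Psmb8 (chr17:34197945-34198244, plus strand): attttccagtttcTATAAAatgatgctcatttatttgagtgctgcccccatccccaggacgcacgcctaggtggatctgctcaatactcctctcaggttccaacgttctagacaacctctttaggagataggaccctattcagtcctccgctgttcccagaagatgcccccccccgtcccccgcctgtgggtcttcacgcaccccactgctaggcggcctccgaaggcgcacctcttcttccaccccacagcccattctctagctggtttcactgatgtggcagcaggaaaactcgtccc
Psmb6 (chr11:70525107-70525406, plus strand): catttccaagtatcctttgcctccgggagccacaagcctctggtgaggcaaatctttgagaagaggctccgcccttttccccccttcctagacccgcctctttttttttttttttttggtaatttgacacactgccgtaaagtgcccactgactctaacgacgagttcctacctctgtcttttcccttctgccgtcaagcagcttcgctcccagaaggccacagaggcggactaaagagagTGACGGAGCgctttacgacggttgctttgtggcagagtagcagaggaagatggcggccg
Psmb9 (chr17:34187281-34187580, minus strand): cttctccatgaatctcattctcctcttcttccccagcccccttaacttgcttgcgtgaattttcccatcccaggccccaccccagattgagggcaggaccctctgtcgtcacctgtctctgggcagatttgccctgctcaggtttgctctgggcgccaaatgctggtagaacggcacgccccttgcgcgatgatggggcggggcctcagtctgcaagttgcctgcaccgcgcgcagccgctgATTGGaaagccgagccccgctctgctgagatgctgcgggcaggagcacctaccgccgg
Psmb10 (chr8:105938343-105938642, minus strand): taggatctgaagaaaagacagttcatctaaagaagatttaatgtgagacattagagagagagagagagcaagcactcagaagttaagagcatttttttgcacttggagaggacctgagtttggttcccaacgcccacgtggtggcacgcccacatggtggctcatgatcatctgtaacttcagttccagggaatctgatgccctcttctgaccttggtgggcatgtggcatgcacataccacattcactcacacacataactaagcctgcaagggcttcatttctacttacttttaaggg
Psme1 (chr14:55578244-55578543, plus strand): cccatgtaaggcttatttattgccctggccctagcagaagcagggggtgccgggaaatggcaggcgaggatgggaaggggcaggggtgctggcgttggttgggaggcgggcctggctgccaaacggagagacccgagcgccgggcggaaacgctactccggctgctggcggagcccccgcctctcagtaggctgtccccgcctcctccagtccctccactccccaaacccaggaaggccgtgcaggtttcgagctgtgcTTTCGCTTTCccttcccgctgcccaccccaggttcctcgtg
Psmc6 (chr14:45329574-45329873, plus strand): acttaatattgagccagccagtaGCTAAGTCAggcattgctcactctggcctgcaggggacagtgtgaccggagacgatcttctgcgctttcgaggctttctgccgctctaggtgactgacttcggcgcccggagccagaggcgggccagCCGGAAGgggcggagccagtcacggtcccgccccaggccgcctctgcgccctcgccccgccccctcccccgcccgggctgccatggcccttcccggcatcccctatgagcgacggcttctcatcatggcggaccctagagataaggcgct

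Positions of matches are given for their first letter, with the annotated start as position 1 and no position 0. Psmb5 and Psmb6 each held 1 antioxidant response core, at -47 and -9. Psmb9 held a CCAAT box at -8 and a GC box at -55, Psmb8 a TATAAA at -237, and Psmb10 no match to any of the 6 motifs. Psme1 held an interferon response core at 10, and Psmc6 an antioxidant response core at -227 and an ETS core at -100. Among genes with a window, no other Psme gene held the interferon core and no other Psmc gene the antioxidant core. Neither gene is thus typical of its group. Psmb6, Psme1 and Psmc6 also held GC boxes. A match is a description of letters and not a bound site.

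Windows were found for 40 of the 48 members. Those without an entry were Psma8, Psmb1, Psmb2, Psmb7, Psmc3, Psmd3, Psmd7 and Psmg2. A gene counted where any of its windows held the motif on either strand, and matches of different motifs overlapped in 2 places. The ETS core was found in 14 members, or 35.0%, against 19.1% of 9813 genes averaging 1 FPKM or more and 9.93% of all 27025 genes with a window. The interferon response core was found in 5 members, or 12.5%, against 3.56% and 3.99%. They were Psme1, Psmb3, Psmd4, Psmd9 and Psmg4. The antioxidant response core was found in 6 members, or 15.0%, against 17.1% and 14.0%. Psmb5, Psmb6, Psmc6, Psmd12, Psmd9 and Psme4 held it. The CCAAT box was in 35.0% of members against 43.0% and 41.1%, the GC box in 57.5% against 68.8% and 38.2%, and TATAAA in 4 of 40 members against 8.79% and 15.7%. Median GC content was 57.3% in 43 member windows and 52.7% in all 32851 windows. These shares were not tested.

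**Figure D3:**
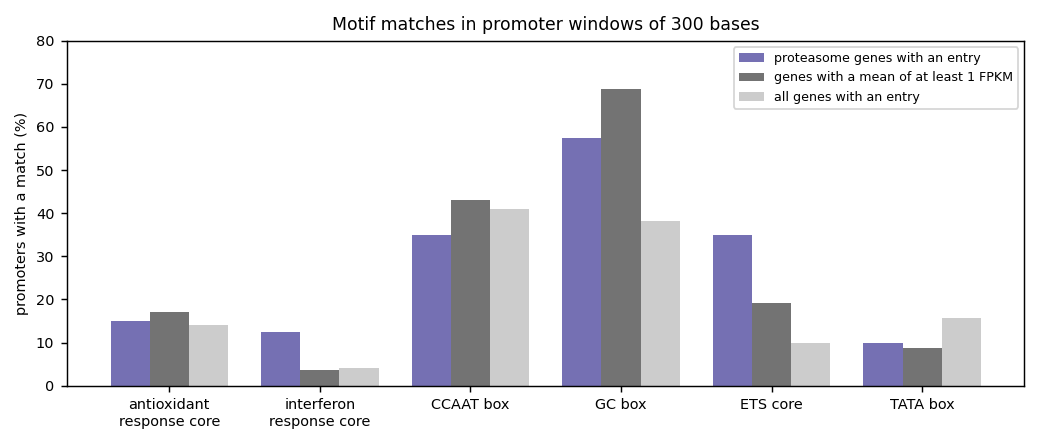
Percent of genes with a match to each of 6 motifs on either strand of a promoter window of 300 bases, for 40 proteasome genes, for genes averaging 1 FPKM or more and for all 27025 genes with a window. The ETS core bar is 35.0% in proteasome genes and 19.1% in genes of at least 1 FPKM.

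Both tissue-restricted subunits were at or near 0. Psma8, the testis form of the Psma7 position, was listed at 0 in replicate 1 and at 0.165, 0.117 and 0.279 FPKM in replicates 2 to 4. Psmb11, the thymus form of the Psmb5 position, was listed at 0 in replicates 1 to 3 and at 0.0778 FPKM in replicate 4. Psma8 lay at -7.67 ± 0.12 (SE) from Psma7 and Psmb11 at -7.44 ± 0.10 from Psmb5 on the log2(FPKM + 1) scale (limma, adjusted p = 3.65e-181 and 9.28e-47), where 98.8% and 98.4% of genes tested lay below those partners. Without moderation both adjusted p-values were 1.43e-05 and 1.79e-05. With values at or near 0, these differences follow the partner's level and the 1 added to FPKM, so the p-values mainly reflect the partner's height. Over the alternatives, which include smaller added values, the difference ranged from -11.3 to -7.65 for Psma8 and from -13.3 to -7.37 for Psmb11. An exact 0 in FPKM can be a failed estimate, so no fold is given.

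The 6 ATPases of the 19S base, which unfold substrates and open the gate of the core, had a median of 108 ± 7.42 FPKM (SD over libraries, n = 4), or 14.5 ± 1.44 times the expressed-gene median, and all 6 exceeded it. Psmc5 was highest, at 187, 247, 200 and 237 FPKM in replicates 1 to 4, and was high in replicates 2 and 4. Psmc2 was lowest, at 64.9, 81.5, 65.7 and 70.1 FPKM. Psmc5 was 3.09 times Psmc2 by mean, with no overlap between them. The assembled base holds these ATPases in equal number. Psmc1, Psmc3, Psmc4 and Psmc6 had means of 156, 120, 96.3 and 76.0 FPKM.

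The 11 non-ATPase subunits of the 19S cap had a median of 81.3 ± 6.42 FPKM (SD over libraries, n = 4), and all 11 exceeded the expressed-gene median. They include the scaffolds Psmd1 and Psmd2, the ubiquitin receptor Psmd4 and Psmd14, the enzyme that removes ubiquitin from substrates. Psmd7, which pairs with Psmd14, was highest by mean, at 105, 111, 108 and 121 FPKM in replicates 1 to 4. Psmd4 was next, at 81.3, 124, 100 and 112 FPKM, so that its range held that of Psmd7. Psmd14 had a mean of 91.6 ± 13.8, Psmd2 of 91.2 ± 15.5 and Psmd1 of 52.4 ± 4.90 FPKM. Psmd11, a lid subunit, was lowest, at 29.8, 42.3, 26.9 and 37.9 FPKM. The remaining Psmd8, Psmd12, Psmd6, Psmd3 and Psmd13 had means of 85.8, 78.9, 78.7, 46.9 and 45.5 FPKM. Psmd13 shares 342 exon bases with Sirt3 on the opposite strand, which measured 85.8 FPKM, and no strand setting is stated, so its value is uncertain.

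In each library the genes for assembly lay below every 19S subunit and constitutive 20S subunit, and all 7 exceeded the expressed-gene median. The 3 chaperones of the 19S base had a median of 23.2 ± 3.51 FPKM (SD over libraries, n = 4). Psmd10 (gankyrin) was highest, at 26.0, 33.7, 24.3 and 32.9 FPKM in replicates 1 to 4, and Psmd9 lowest, at 13.2, 14.6, 13.3 and 13.0, with Psmd5 between them by mean. The 4 chaperones of the 20S core lay within 1.16-fold of each other by mean, with a group median of 20.7 ± 1.33 FPKM.

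Psmg1 measured 20.8, 23.3, 15.9 and 22.1 FPKM in replicates 1 to 4 and its partner Psmg2 18.1, 27.7, 19.8 and 25.2, and both join the first alpha subunits. Psmg3 measured 20.5, 19.8, 20.1 and 22.3 FPKM and its partner Psmg4 16.8, 18.4, 22.6 and 20.3. The ranges of all 4 overlapped. Pomp, the chaperone of the beta ring, does not carry a Psm name and measured 107 ± 11.7 FPKM (SD, n = 4), above every assembly factor named here in each library.

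Of the 4 alternative caps, the PA28 genes were measured at middle levels and the PA200 gene was low. Psme1 (PA28 alpha) measured 49.1, 62.7, 54.0 and 64.6 FPKM in replicates 1 to 4 and Psme2 (PA28 beta), its partner in a shared ring, which also lies on chromosome 14, 59.2, 71.0, 61.5 and 69.5. Psme2 was higher in 4 of 4 libraries, and Psme1 held 46.8% ± 1.15 (SD) of the pair's FPKM. The log2 difference of -0.18 ± 0.08 (SE) passed (limma, adjusted p = 0.0214, where 94.6% of genes tested lay below Psme2). It did not pass with no mean-variance trend (limma, adjusted p = 0.0907), without replicate 1 (adjusted p = 0.0858) or without replicate 3 (adjusted p = 0.0684). The range over 13 alternatives was 0.0116 to 0.0907. Psme2b, a near-identical copy on chromosome 11 (99.4% identity over 794 bases), measured 1.51 FPKM, or 2.31% of Psme2, and the split of reads between them is not stated.

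Psme3 (PA28 gamma), the nuclear cap, measured 41.1, 54.1, 43.0 and 40.0 FPKM in replicates 1 to 4, lower than Psme1 and Psme2 in 4 of 4 libraries. Psme1 lay 0.36 ± 0.11 (SE) and Psme2 0.55 ± 0.11 above it on the log2 scale (limma, adjusted p = 0.00118 and 8.85e-07, where 6.09% of genes tested lay above Psme3). In limma without moderation the adjusted p was 0.0435 for Psme1, near the threshold, and 0.00786 for Psme2. Psme4 (PA200), whose protein caps the core in nuclei, measured 2.81, 2.07, 4.72 and 3.54 FPKM. It lay at -3.44 ± 0.21 from Psme3 (limma, adjusted p = 3.57e-62, where 91.9% of genes tested lay below Psme3, and 0.00125 without moderation). Psme4 lay at -1.02 from the expressed-gene median (limma, adjusted p = 0.000174) and at 0.016 with reference genes of at least 0.1 FPKM (adjusted p = 0.924). Its transcript of 6491 bases is the longest among the members, and its 2.28-fold spread between libraries was the widest of those averaging 1 FPKM or more. Psmf1 (PI31), a gene named for inhibiting the proteasome in vitro, measured 7.78, 12.6, 8.72 and 10.2 FPKM. It lay 0.33 above the expressed-gene median (limma, adjusted p = 0.0254). That call did not pass in 5 alternatives: without replicate 2 (adjusted p = 0.112), without replicate 4 (0.0737), without moderation (0.127), with a protein-coding reference (0.129) and with a reference of like transcript length (0.0543).

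The median spread of members across libraries was near that of other genes in the middle range of member levels. The median coefficient of variation (SD as a percent of the mean) was 10.5% in the 46 genes averaging 1 FPKM or more. It was 10.6% in 1566 other genes between 35.3 and 125 FPKM, the interquartile range of member levels. The 46 members were not limited to that range, so the sets are unlike in level. Of these members the most variable were Psme4 at 34.4%, Psmb9 at 22.9% and Psmf1 at 21.3%, and the least variable was Psmb3 at 4.49%. Replicate 2 held the highest value of 33 of the 46 genes (71.7%), replicate 4 of 9, replicate 3 of 3 and replicate 1 of 1. Replicate 1 held the lowest value of 26. Replicate 2 was highest for 29.1% of 13608 other genes averaging 1 FPKM or more and for 51.5% of the 1566 genes in the interquartile range.

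Libraries also differed by transcript length. The longest annotated transcript had a median of 1912.5 bases over all members and of 3166.5 over genes averaging 1 FPKM or more. Among other genes with transcripts of at least 5 kb, replicate 2 was highest for 9.34% and lowest for 53.9%. Among those no longer than 2 kb, replicate 2 was highest for 32.9% and replicate 4 for 36.7%. Among those of this length that were also within the interquartile range of member levels, replicate 2 was highest for 42.7% and replicate 4 for 45.6%. In the 46 members, which were limited neither to that length nor to that range of levels, these shares were 71.7% and 19.6%. The sets are thus unlike, and the difference was not tested. Psme4 had its lowest value in replicate 2, as most long genes did, but long genes were most often highest in replicate 1 (41.8%) and Psme4 was highest in replicate 3. The part of transcript length in the library pattern was not tested. Across the 46 genes, which are not independent replicates, log2 transcript length and log2(FPKM + 1) had a Pearson's r of -0.38 and a Spearman's rho of -0.33. FPKM already divides by length. Over 13586 genes of at least 1 FPKM these were -0.19 and -0.21.

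**Figure D4:**
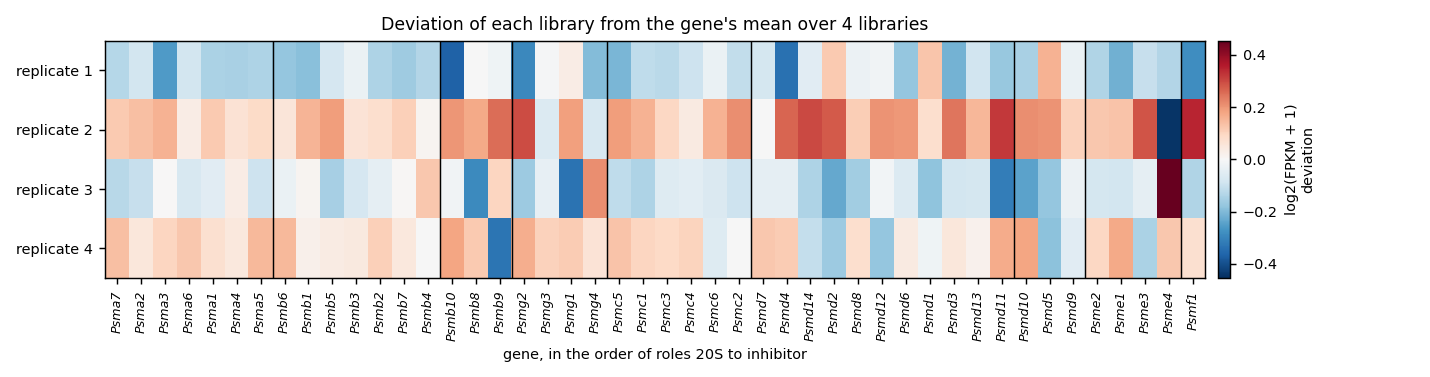
Deviation of each library from the gene's mean over 4 libraries, in log2(FPKM + 1), for the 46 proteasome genes averaging 1 FPKM or more. Black lines separate the role groups. Replicate 2 is the highest library for 33 genes, and Psme4 differs, with its lowest value in replicate 2 and its highest in replicate 3.

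Other genes of the pathway were measured beside the subunits. Of 5 further proteasome parts, all lay above 1 FPKM (limma, adjusted over all genes), 4 exceeded the expressed-gene median and 1 lay below it. Over all genes tested 47.7% lay above 1 FPKM, and 23.9% were higher and 69.5% lower than the expressed-gene median. Shfm1, which encodes the small cap subunit also called Sem1, measured 76.6 ± 7.87 FPKM (SD, n = 4), Adrm1, a ubiquitin receptor of the cap, 47.2 ± 7.36, and Akirin2, which carries proteasomes into the nucleus, 33.9 ± 3.99. AI314180, the gene of the adaptor ECM29, was lowest at 5.82 ± 1.36. Of 12 enzymes and shuttles that bind the proteasome, 11 exceeded the expressed-gene median and Midn lay below it at 0.477 ± 0.126 FPKM. Usp14 and Uchl5, which trim ubiquitin at the cap, measured 82.1 ± 9.96 and 57.3 ± 6.95 FPKM.

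Of 7 genes around Nrf1, the factor that raises proteasome genes when the proteasome is impaired, 5 exceeded the expressed-gene median, Ddi2 lay below it and Syvn1 passed in neither direction (limma, adjusted p = 0.821). Of all genes tested 23.9% were higher and 69.5% lower than that median. Nfe2l1, which encodes Nrf1, measured 42.7, 28.7, 36.5 and 32 FPKM in replicates 1 to 4, and was lowest in replicate 2, where most subunits were highest. Replicate 2 was also lowest for 27.6% of non-member genes averaging 1 FPKM or more. That share was 53.9% for transcripts of at least 5 kb and 21.1% for those no longer than 2 kb. It was 10.7% for non-member genes within the interquartile range of member levels. A link between Nfe2l1 and the subunits was not tested. Nfe2l2, which encodes Nrf2, measured 15.0 ± 2.16 FPKM (SD, n = 4), Vcp, the segregase that extracts Nrf1 from the membrane, 84.0 ± 5.08, and Ddi2, the protease that activates Nrf1, 2.75 ± 0.0700.

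Ubb, a polyubiquitin gene, had a higher mean than any subunit, at 1469 ± 177 FPKM (SD, n = 4). Rps27a, a ubiquitin-ribosomal fusion gene, measured 197 ± 27.5 FPKM and lay among the highest subunits. Of 4 genes of ubiquitin and its activation given here 3 exceeded the expressed-gene median, among them the activating enzyme Uba1 at 40.4 ± 3.46, and Uba6, its alternative form, lay below it at 3.16 ± 0.866 FPKM. Among all genes tested, 23.9% exceeded that median and 69.5% lay below it.

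Of 7 genes of peptide presentation and interferon control given here, 2 exceeded the expressed-gene median and 5 lay below it, where 23.9% of all genes tested were higher and 69.5% lower, so the list was near the background. With limma 4 lay above 1 FPKM, Nlrc5 lay below it, and Tap1 and Erap1 passed in neither direction (adjusted p = 0.144 and 0.0775). B2m, the light chain of class I molecules, measured 263 ± 15.7 FPKM (SD, n = 4) and Tapbp, tapasin, 19.9 ± 1.38. Tap1, the peptide transporter gene next to Psmb9, measured 1.65, 1.40, 1.53 and 0.897 FPKM in replicates 1 to 4 and was lowest in replicate 4, as Psmb9 was. Tap1 and Psmb9 share 212 exon bases on opposite strands, so the values of both are uncertain. Irf1, a factor of the interferon response, measured 5.37 ± 0.766 FPKM, and Nlrc5, an activator of class I genes, 0.0215 ± 0.0122.

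**Figure D5:**
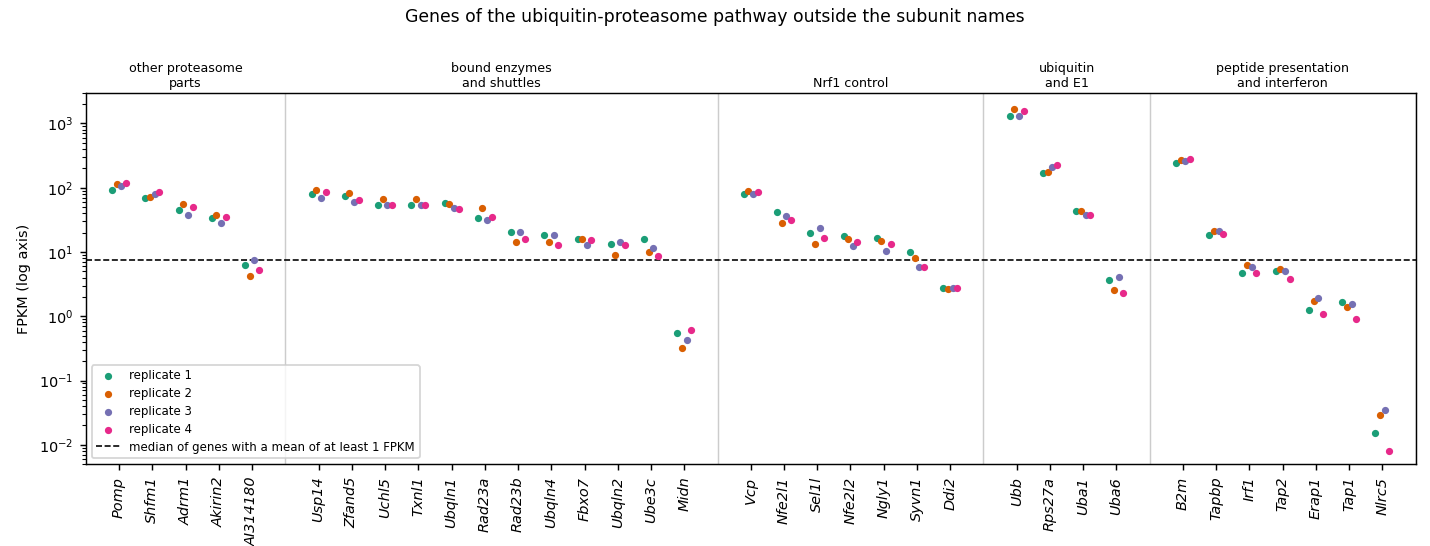
FPKM on a log axis for genes of the ubiquitin-proteasome pathway outside the subunit names, by list and ordered by mean, with 1 point per library and the expressed-gene median of 7.48 FPKM as a dashed line. The ubiquitin gene Ubb is highest at 1469 FPKM, and Nlrc5 lowest at 0.0215 FPKM.

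Near-identical transcripts of other genes were found for 7 members, at no less than 95% identity over 50% of the shorter transcript. The highest was Gm13835, a processed pseudogene on chromosome 6 identical to Psma3 over 665 bases, at 6.75 FPKM against 180 for Psma3, or 3.75%. Among the other copies with a value, none but Psme2b exceeded 1% of its member. Psmb5 and Psmc1 each had a copy with no row in the table. Exons were shared with another gene in 13 members. Psmb7 shared 405 bases with Nek6 on the opposite strand, which measured 9.67 FPKM against 117 for Psmb7.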

How the data were processed

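Poly(A) RNA-seq libraries from 4 samples of 1 group were analysed from 1 table of FPKM deposited by the authors, with 46072 genes. Per the submitters' processing notes, the tools were StringTie 2.2.1, HISAT2 2.2.1, SAMtools and bcl2fastq 2.20, on build GRCm38, with no order stated. Annotation release, strand setting, filters and the handling of multiply mapped reads were not given in the sources used here. Each column was tied to a sample by the library name in the labels, and 0 columns were left out. The low values gave no whole-read steps, so read depth is unknown and no counting interval is given.

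Values were analysed as log2(FPKM + 1). limma 3.58.1 in R 4.3.3 fitted an intercept to every gene above 0 in some library (25206 genes), with a mean-variance trend, a 2-sided test, Benjamini-Hochberg adjustment over all genes and a threshold of 0.05. The reference was 1 FPKM, the same library's median of genes averaging 1 FPKM or more, or a partner gene in the same library. Each SE of a log2 difference is limma's moderated SE, which draws on the spread of all genes in the fit. Group medians are descriptions with no test. The fit was also run on simulated data, with independent noise for each gene. That setting differs from a partner fit, where all genes share the partner's noise. GENCODE M21 (GRCm38) gave positions and transcript lengths for 45137 genes of the table, as the longest annotated transcript. BLAST+ 2.17.0 found near-identical transcripts, of at least 200 aligned bases, and RefSeq GRCm38.p6 gave promoter windows. Figures were drawn with matplotlib 3.10.9.

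The members and lists were chosen with earlier results of these data known. Named genes are the highest and lowest member of each role group, the cutting and immune subunits, Psma8, Psmb11, the Psme, Psmf and Psmg genes and the 3 most variable members, and other members are given by mean. Of the list of further proteasome parts, 1 gene, Paaf1, was not matched in the table. A few genes of the other pathway lists are not reported here. Alternatives covered the pseudocount, gene filter, scaling, variance model, level, reference and each library left out, and limma without moderation was chosen after seeing the data.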

Additional observations from a re-analysis of the deposited data

Results flagged for a closer look

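In 5 of 59 series of 4 library values, 1 library stood far from the other 3, by a gap over the group's range above Dixon's critical value, and chance gives this in about 1 in 20 groups. Psmc6 measured 84.6 FPKM in replicate 2, against 72.3 to 74.2 in the others. Psmd9 measured 14.6 FPKM in replicate 2, against 13.0 to 13.3. The median over all 48 members was 90.4 FPKM in replicate 2, against 75.8 to 76.6. Psma4 stood low in replicate 1 at 92.7 FPKM, against 105 to 108. Psmb11 was listed above 0 in replicate 4 alone, at 0.0778 FPKM. With its other values at 0, its gap equals its range by construction, so the chance rate does not apply to it. Replicate 2 was the outlying library in 3 of the 5.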

How the results depend on the processing

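Of 246 recomputed counts, pair differences and role group levels, 226 stayed within 1.5 times the main count, on the same side of the threshold or within 1 SD. The members above 1 FPKM were 46 in all alternatives but a level of 5 FPKM, where they were 43, and those above the expressed-gene median ranged from 42 to 44. Members below 1 FPKM numbered 0 when only genes averaging 1 FPKM or more entered, which removes them by construction, 4 at a level of 5 FPKM, and 1 to 2 with a library left out, since without replicate 4 Psmb11 is at 0. Members below the expressed-gene median numbered 3 with that filter and 2 with reference genes of at least 0.1 FPKM, which lower the reference, and 4 to 5 with a library left out. At a level of 5 FPKM, Psme4 turned to -0.52 and Psmb9 to -0.76 on the log2 scale. With reference genes of at least 0.1 FPKM, Psme4 turned to 0.016 and Psmb8 to 0.65. Psme1 minus Psme2 did not pass at -0.18 with no trend, and ranged from -0.21 to -0.16 with a library left out. With each library rescaled to a sum of 1000000, 15710 genes reach a mean of 1 in place of 13654, which lowers the reference. The fold over the expressed-gene median then became 27.3 for 20S alpha, 30.5 for constitutive beta, 0.976 for immune beta, 19.1 for 19S ATPases, 14.4 for 19S non-ATPases, 4.09 for 19S assembly, 9.03 for activators, 1.74 for Psmf1 and 3.66 for 20S assembly. With the group mean in place of the median it was 2.08 for immune beta, 16.5 for 19S ATPases and 5.72 for activators. No paired analysis was possible because the series has 1 group. Read depth is unknown, and the 2 tissue-restricted genes are too close to 0 for a difference among libraries to be read.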
